A study of Mus musculus with 2 samples.

Results

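The genes described are the DBHS family of nuclear RNA-binding proteins, Pspc1, Nono and Sfpq, together with the long noncoding RNAs Neat1 and Malat1. They were chosen by name, by a rule that uses no measured value but was proposed with earlier results of these data known, and all 5 were found by Ensembl identifier among the 11405 genes listed in both tables. RNA was sequenced from MS1, a mouse endothelial line derived from islet vessels, after infection with a lentivirus. The lentivirus carried a short hairpin RNA against Pspc1 in the cells labelled Pspc1 knockdown, or against LacZ, a bacterial gene, in the control cells labelled wt. Both groups therefore carried a lentiviral hairpin, and each held 1 library from 1 cell line. The sources used here give neither the hairpin sequences nor the time after infection. With 1 library per group no difference has a replicate check, no test was possible, and every value below describes these 2 libraries.

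DBHS proteins share a core of RNA recognition motifs and a coiled coil through which they form dimers with each other, and they take part in transcription, splicing and the nuclear retention of RNA. Paraspeckles are nuclear bodies in which these proteins coat a scaffold made of the long isoform of Neat1. NONO and SFPQ are needed for the bodies to form, and PSPC1 is the protein through which they were first described. Malat1 is transcribed from the gene next to Neat1 and gathers in nuclear speckles, the neighbouring bodies rich in splicing factors.

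Neat1 and Malat1 are unusual at their 3′ ends, which bears on a library made from RNA bound to oligo-dT beads. The short Neat1 isoform ends in an ordinary poly-A tail. The long Neat1 isoform and Malat1 are instead cut by RNase P, and their ends are protected by a helix formed between a genomically encoded A-rich run and U-rich runs upstream of it. These stretches are shown because they hold A-rich runs or polyadenylation signals. The first line holds the last 110 bases of the long Neat1 transcript (mm10 chr19:5824708-5824817, minus strand). The second holds the 110 bases of Malat1 that end with its A-rich run (chr19:5795982-5796091, minus strand), beyond which the annotated transcript continues for 292 bases to an end that has AATAAA in its last 50 bases. Capitals in both lines mark the runs of at least 11 bases that the pair share. The third line holds the last 110 bases of the short Neat1 transcript, with its polyadenylation signal AATAAA in capitals.
Neat1-201: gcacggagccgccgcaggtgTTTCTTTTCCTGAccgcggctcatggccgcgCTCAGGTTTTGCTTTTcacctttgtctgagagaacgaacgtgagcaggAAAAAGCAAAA
Malat1-201: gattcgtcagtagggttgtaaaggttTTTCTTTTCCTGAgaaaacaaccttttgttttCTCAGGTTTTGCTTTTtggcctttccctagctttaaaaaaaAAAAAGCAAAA
Neat1-202: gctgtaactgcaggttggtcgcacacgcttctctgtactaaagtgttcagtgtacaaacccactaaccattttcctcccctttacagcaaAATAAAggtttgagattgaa

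The windows of long Neat1 and Malat1 shared 3 such runs in the same order, read on the transcript strand. The middle one, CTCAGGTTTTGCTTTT (16 bases), was found in 2 of 141767 annotated mouse transcripts, those of Neat1 and Malat1. The U-rich run TTTCTTTTCCTGA was found in 35 transcripts of 21 genes. The A-rich run AAAAAGCAAAA was more common, in 618 transcripts of 376 genes, or 0.436% of all. Within the last 50 bases it stood in 0.0527% of 58787 protein-coding transcripts, whereas AATAAA stood in 40.6% of them. How well the beads bound these ends was not tested. The tables give 1 value per gene, so the short and long isoforms of Neat1 cannot be told apart.

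The deposited values are read counts that the authors scaled per library, and behind them stood 53518762 reads on the listed genes in the Pspc1 hairpin library and 64009912 in the LacZ hairpin library. The cells were checked against markers of their labelled type. Of 10 endothelial markers 9 were listed, with summed values of 6373 in the Pspc1 hairpin library and 6123 in the LacZ hairpin library. They ranged in abundance up to Pecam1 (2175 and 2258 in the same order) and down to Tek (7.13 and 13.6), while Cldn5 was not among the listed genes. The near-equal sums hid members that went apart, with log2 ratios from -0.94 for Kdr (77.3 and 148.9) and -0.75 for Cdh5 (511.2 and 859.4) to 0.59 for Esam (566.1 and 376.5). None of 4 beta cell markers and none of 4 acinar markers was listed. The fibroblast and mural list had 2 of 5 markers listed, with sums of 3.37 in the Pspc1 hairpin library and 1.87 in the LacZ hairpin library. Of the leukocyte and epithelial markers only Cd68 (124 in the Pspc1 hairpin library and 103 in the LacZ hairpin library) and Krt18 (36.9 and 23.9 in the same order) were listed. The part of such cells in the results was not tested.

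Pspc1, the targeted gene, had the second-lowest log2 ratio of the 8633 genes whose values averaged at least 5 over both libraries. Its value was 3.78 in the Pspc1 hairpin library, against 28.8 in the LacZ hairpin library, from 192 and 1880 reads in that order. The Pspc1 hairpin library thus held 13.1% of the LacZ level. Pspc1 reached the minimum mean of 5 only through its LacZ value. The gene lies on mm10 chromosome 14 (56720710 to 56778316, minus strand) and has 5734 bp of annotated exons. Ratios are given as log2((Pspc1 hairpin + 0.5)/(LacZ hairpin + 0.5)), and that of Pspc1 was -2.77. The 95% counting interval, computed without the pseudocount, ran from -3.15 to -2.71. In bulk RNA, fewer cells with a transcript and less of it per cell cannot be told apart. Such intervals cover the counting of reads alone, and these reads carry no molecular identifiers. The gene at the lowest ratio was Sprr1a (-3.36), which encodes a protein of the cornified envelope of skin.

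Nono and Sfpq, the partners with which PSPC1 dimerises, differed little between the libraries, one in each direction. Nono (chromosome X, 101429318 to 101448591, plus strand) had a value of 457.5 in the Pspc1 hairpin library, against 417.4 in the LacZ hairpin library. It was the most abundant of the 5 genes in both libraries. Its log2 ratio was 0.13, with a counting interval of 0.11 to 0.16, and 66.9% of the 8633 genes had a ratio as low or lower. Scaled by total reads the ratio was 0.03, so the small excess depended on how the libraries were scaled. Sfpq (chromosome 4, 127021324 to 127037013, plus strand) had 107.8 in the Pspc1 hairpin library and 133.6 in the LacZ hairpin library. Its log2 ratio was -0.31 (interval -0.36 to -0.26), and 22.8% of genes lay as low or lower. Nono and Sfpq both lay between the 5th and the 95th percentile of all 8633 genes, which were at -0.76 and 0.53. A share of the Sfpq exons, 4.55%, overlaps another annotated transcript, Gm12940, on the same strand.

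Set against each other within a library, the ratio of Nono to Sfpq does not depend on scaling. Per kilobase of exons, Nono stood 4.60 times as high as Sfpq in the Pspc1 hairpin library and 3.39 times as high in the LacZ hairpin library. The change was 1.36-fold, with an exact counting interval of 1.31 to 1.41. Pspc1 was the scarcest of the family in both libraries on this scale, at 0.660 per kilobase in the Pspc1 hairpin library, against 5.02 in the LacZ hairpin library. Nono had 104.6 and 95.4 per kilobase in the same order, and Sfpq had 22.7 and 28.2. Pspc1 made up 0.515% of the summed DBHS signal per kilobase in the Pspc1 hairpin library and 3.91% in the LacZ hairpin library. The share of Nono was 81.7% in the Pspc1 hairpin library and 74.2% in the LacZ hairpin library, and that of Sfpq was 17.8% and 21.9%. In the values as deposited, the summed signal of the family was almost equal, at 128.0 per kilobase in the Pspc1 hairpin library and 128.6 in the LacZ hairpin library. Unlike the ratio of Nono to Sfpq, this comparison of sums depends on how the libraries were scaled, and other scalings of it were not run. All of these are levels of RNA, and protein was not measured.

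**Figure D1:**
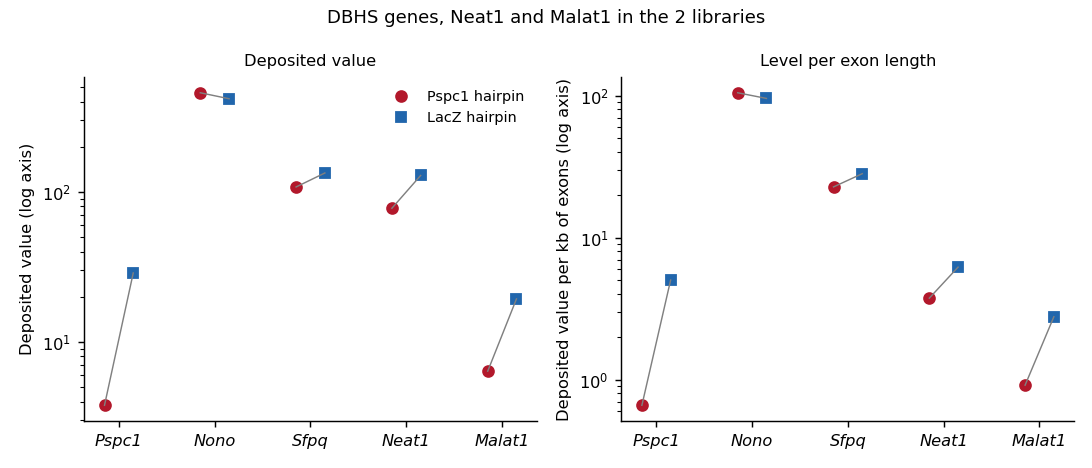
Deposited values (left) and deposited values per kilobase of exons (right) of the 5 genes, on log axes, with the Pspc1 hairpin library as circles and the LacZ hairpin library as squares, 1 library each. Pspc1 and Malat1 show the steepest lines, from 3.78 against 28.8 and from 6.38 against 19.3 on the left, while the points of Nono and Sfpq lie close together.

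Neat1, the paraspeckle scaffold, was lower in the Pspc1 hairpin library but short of 2-fold. It had 77.8 in the Pspc1 hairpin library and 128.6 in the LacZ hairpin library, from 3950 and 8392 reads in that order. The log2 ratio was -0.72, with a counting interval of -0.78 to -0.67, and 5.75% of the 8633 genes had a ratio as low or lower. Neat1 (chromosome 19, 5824708 to 5845478, minus strand) has 20771 bp of exons, more than 99.8% of genes with a mean of at least 20. Long genes tended to have lower ratios in this pair of libraries, with Spearman's rho of -0.32 between length and log2 ratio across 5889 genes, which are not independent replicates. The 300 genes most like Neat1 in length and GC content had a median log2 ratio of -0.23. Most of these genes are shorter than Neat1, since few reach its length. The match used all 20771 bp, although reads of the short isoform of 3004 bases cannot be told apart. After subtraction of that trend, with 0.038, the median of genes with a mean of at least 20, added back, the ratio of Neat1 was -0.46.

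Malat1, the speckle-associated RNA, was lower by a larger factor than Neat1. It had 6.38 in the Pspc1 hairpin library, against 19.3 in the LacZ hairpin library, from 324 and 1262 reads in that order. The log2 ratio was -1.53, and the interval without pseudocount was -1.78 to -1.42. The LacZ level was 3.03 times the level with the Pspc1 hairpin. Malat1 (chromosome 19, 5795690 to 5802672, minus strand) stood at position 25 from the bottom among the 8633 genes, or within the lowest 0.290%. The trend with length and GC was -0.21 for genes like it, and its ratio after the same correction was -1.28. With a pseudocount of 5 it was -1.10, so a ratio below -1 remained under every setting run. Of the Malat1 exons, 6.49% overlap Gm37376 on the opposite strand and 1.23% overlap Gm27694 on the same strand. The library kit is not stated to mark strand, so reads there cannot be assigned.

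Both noncoding RNAs stood at the low end of their class, Malat1 more so. Among 56 genes annotated as lincRNA and averaging 5 or more, which had a median log2 ratio of 0.13, Malat1 had the lowest ratio and Neat1 the fourth lowest. The gene next above Malat1 was at -1.48, and 2 of the 56 were at least 2-fold lower, against 1.92% of all 8633 genes. The ratio of Neat1 to Malat1 per kilobase was 4.10 in the Pspc1 hairpin library and 2.24 in the LacZ hairpin library, a change of 1.83-fold with a counting interval of 1.61 to 2.09. With a pseudocount of 5 that difference of log2 ratios shrank to 0.41, against 0.81 with 0.5.

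The level of Malat1 was modest for an RNA known as one of the most abundant in many cell nuclei. Per kilobase it had 0.914 in the Pspc1 hairpin library and 2.77 in the LacZ hairpin library, at ranks 8983 and 7089 of 11405 genes in that order. Neat1 had 3.75 in the Pspc1 hairpin library and 6.19 in the LacZ hairpin library, at ranks 6280 and 5279. Were all Neat1 reads from the short isoform of 3004 bases, the level per kilobase would be 25.9 in the Pspc1 hairpin library and 42.8 in the LacZ hairpin library. Orders by level were also taken among the 56 lincRNA genes described above. By value without regard to length, Neat1 was the 4th highest in the Pspc1 hairpin library and the 2nd highest in the LacZ hairpin library. Per kilobase of all its exons, Neat1 was only 40th and 29th of the 56 in the same order. Malat1 was 48th and 20th by value, and 55th and 43rd per kilobase. The sources used here do not say how reads of several places or several genes were counted.

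**Figure D2:**
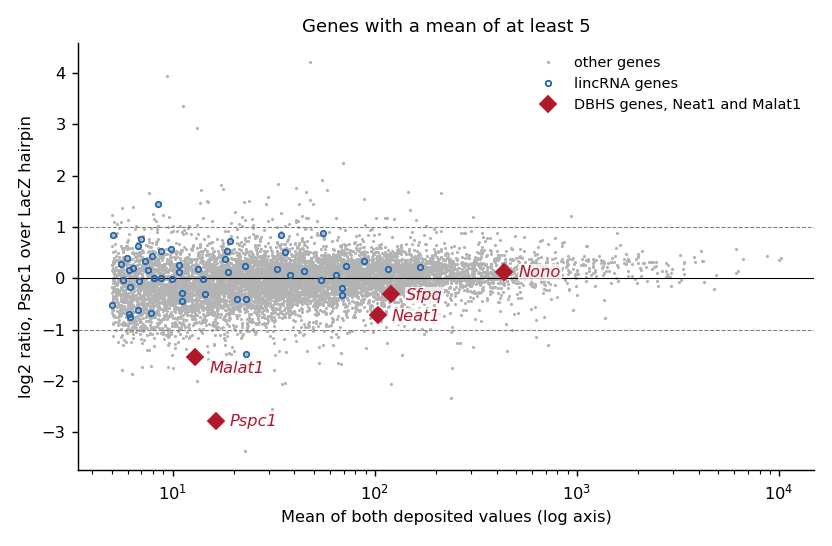
Log2 ratio of Pspc1 over LacZ hairpin against the mean of both deposited values (log axis) for the 8633 genes averaging 5 or more, 1 library per group, with lincRNA genes as open circles, the 5 genes as diamonds and dashed lines at 2-fold. Pspc1 (-2.77) and Malat1 (-1.53) lie below the lower line, and Nono, Sfpq and Neat1 lie inside both.

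Read against all genes, calls of at least 2-fold were rare. Of 3629 genes averaging 50 or more, 0.937% were at least 2-fold lower in the Pspc1 hairpin library and 0.551% at least 2-fold higher. These were 34 and 20 genes, or 24 and 23 with median-of-ratios scaling, 25 and 23 with a trimmed mean of M values, and 50 and 17 when scaled by total reads. Nono, Sfpq and Neat1 passed that minimum, and 0 of the 3 was called. Pspc1 and Malat1, with means of 16.3 and 12.9, did not pass it. With the minimum at 5, which all 5 genes passed (Pspc1 only through its LacZ value), 1.92% of genes were called lower and 0.961% higher. Pspc1 and Malat1 were called lower. Low values scattered more and also lay lower: of 1498 genes with a mean of 10 to 20, 2.8% were at least 2-fold lower. Their median log2 ratio was -0.15, with 5th and 95th percentiles of -0.87 and 0.52. Over genes with a mean of at least 50 these were 0.07, -0.50 and 0.51 in the same order. In the window of 10 to 20, 8 genes had a ratio as low as that of Malat1, itself and Pspc1 included. The window was chosen after the values were seen.

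**Figure D3:**
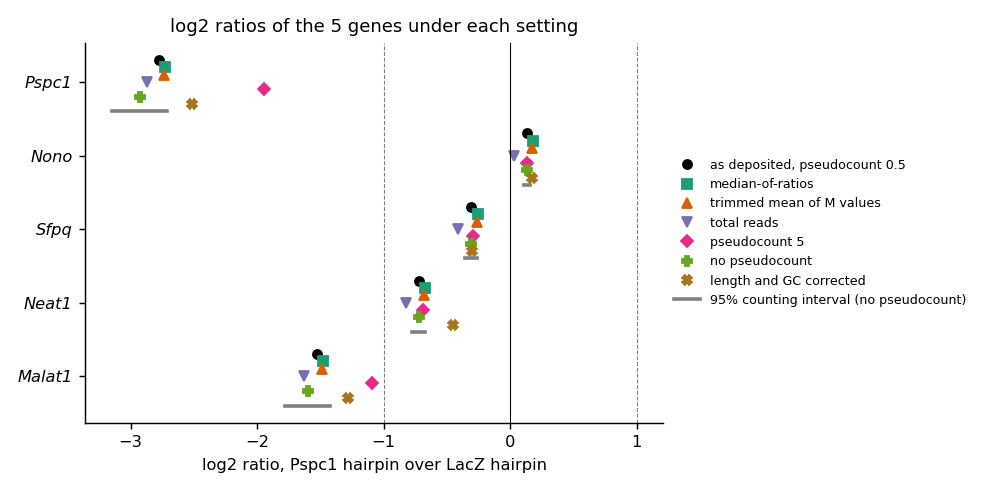
Log2 ratio of Pspc1 over LacZ hairpin for each of the 5 genes under 7 settings (symbols), with the 95% counting interval without pseudocount as a grey bar and dashed lines at 2-fold. Pspc1 stays at -1.94 or below and Malat1 at -1.10 or below, Neat1 lies between -0.82 and -0.46, and Nono between 0.03 and 0.18.

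The genes around Neat1 and Malat1 did not share their lower values as a group. Within 250 kb, 26 protein-coding genes were listed, of which 23 had a mean of at least 5. Their log2 ratios were above 0 in 17 and below 0 in 6, with a median of 0.11, against -0.01 over all 8633 genes. Of the 23, 18 had a mean of at least 50. Over all genes with such a mean the median was 0.07, with 39.9% below 0. When scaled by total reads 11 of the 23 lay below 0, and after the length and GC correction 11 did. Frmd8, 4.22 kb from Neat1 on the side of its start, had 202.0 in the Pspc1 hairpin library and 173.8 in the LacZ hairpin library. The log2 ratio of Frmd8 was 0.22, and 0.11 when scaled by total reads.

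Farther out, 1 of the 23 neighbours was at least 2-fold lower and none was at least 2-fold higher, against 1.92% lower and 0.961% higher over all 8633 genes. Pcnx3, which encodes a pecanex-family membrane protein, had 13.9 in the Pspc1 hairpin library and 49.5 in the LacZ hairpin library, a log2 ratio of -1.79. It lies 106.8 kb from Malat1, and its start overlaps that of Map3k11 on the other strand, which had 387.5 and 382.5 in the same order. Sipa1, a Rap GTPase-activating protein, was next lowest with 393.2 in the Pspc1 hairpin library and 625.0 in the LacZ hairpin library. Rela, the NF-kB subunit p65, had 232.5 in the Pspc1 hairpin library and 166.6 in the LacZ hairpin library, the highest ratio of the 23 at 0.48. Fau, a ribosomal protein gene, was also at 0.48, with 2037 in the Pspc1 hairpin library and 1461 in the LacZ hairpin library. Ltbp3 (111.4 and 132.9), Pola2 (131.6 and 148.8), Dpf2 (214.1 and 168.5) and Cdc42ep2 (45.9 and 34.2) lay between them, with the Pspc1 hairpin library given first.

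**Figure D4:**
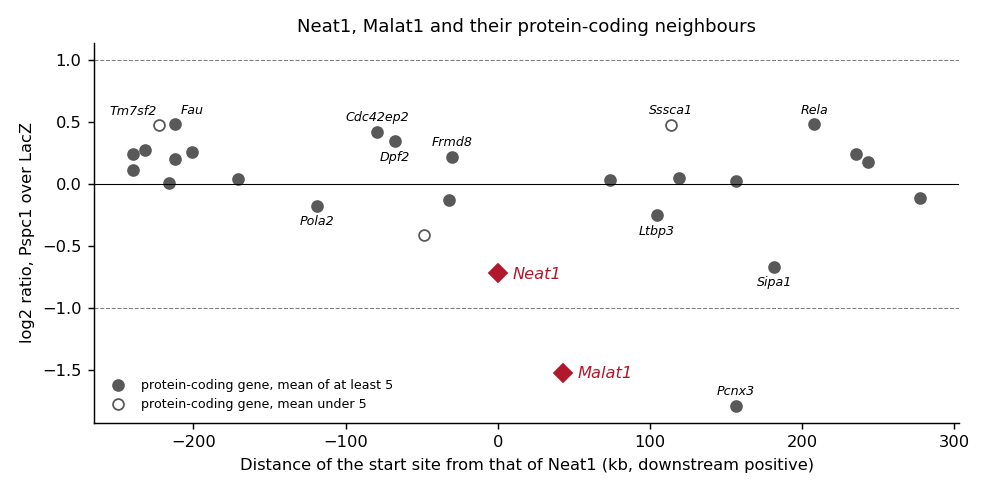
Log2 ratio of Pspc1 over LacZ hairpin for Neat1, Malat1 (diamonds) and 26 protein-coding neighbours (circles, open where the mean is under 5) against the distance of each start site from that of Neat1 in kb, 1 library per group. Neat1 (-0.72) and Malat1 (-1.53) lie below most of the neighbours, and Pcnx3 (-1.79) is the lowest point.

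Other protein components of paraspeckles had log2 ratios below 0 in most cases. None of those counted reached 2-fold, against 1.92% lower and 0.961% higher over all 8633 genes. Of 34 genes on a list of such proteins, which excludes the DBHS genes, 29 had a mean of at least 5. In the Pspc1 hairpin library 24 of the 29 had a log2 ratio below 0 and 5 above. The median was -0.27, against -0.01 and 51.4% below 0 over all 8633 genes, and it was -0.17 after the length and GC correction. Other scalings put 22 to 27 of the 29 below 0. Of the 24, Hnrnph3, Rbm12 and Ahdc1 reached the minimum mean of 5 only through their LacZ values. These were 8.09, 6.50 and 6.76, against 4.31, 4.96 and 4.37 in the Pspc1 hairpin library. Over members with a mean of at least 20 the list median was -0.23. The highest of the 5 above 0 was Rbm4b (14.4 in the Pspc1 hairpin library and 11.7 in the LacZ hairpin library), named after its values were seen. Hnrnph1 had 43.7 in the Pspc1 hairpin library and 78.9 in the LacZ hairpin library, the lowest ratio of the list (-0.84). Tardbp, the gene of TDP-43, had 61.9 and 97.4 in the same order, and Hnrnpm had 88.7 and 137.2. Hnrnpk, which favours the long Neat1 isoform over the short one, had 307.8 in the Pspc1 hairpin library and 413.3 in the LacZ hairpin library. The median exonic length of the list was 5907 bp, against 4171 bp over genes with a mean of at least 20.

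Genes of the nuclear speckle, where Malat1 resides, also leaned low. Ratios below 0 were found for 14 of 16 genes on the list, Mettl16 among the 14, against 51.4% of all 8633 genes. Under median-of-ratios scaling or a trimmed mean of M values 12 lay below 0, and when scaled by total reads 15 did. The median log2 ratio was -0.18, or -0.12 after the length and GC correction, when 12 also lay below 0. These genes were long, with a median exonic length of 7380 bp, against 4171 bp over genes with a mean of at least 20. Among members with a mean of at least 50, Srsf3, a splicing factor of the SR family, had 183.4 in the Pspc1 hairpin library and 226.2 in the LacZ hairpin library. Acin1, of the exon junction-associated ASAP complex, had 141.3 and 163.8 in the same order, and the RNA helicase gene Ddx39b had 280.8 and 313.1. U2af2, which encodes the large subunit of the splicing factor U2AF, stood on the other side of 0 with 568.4 in the Pspc1 hairpin library and 498.5 in the LacZ hairpin library. Named after their values were seen, the low-level genes Pnn (4.06 and 9.88) and Sf3b1 (6.97 and 14.5) were the 2 of 16 at least 2-fold lower, against 1.92% of all 8633 genes. Pnn reached the minimum mean of 5 only through its LacZ value.

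The enzymes that cut and finish the tRNA-like 3′ ends of long Neat1 and Malat1 had log2 ratios between -0.36 and 0.25. Of 11 genes of RNase P and of tRNA 3′ processing with a mean of at least 5, 6 had a log2 ratio above 0 and 5 below. Their median was 0.04 and turned to -0.07 when scaled by total reads and to -0.09 after the length and GC correction. The RNase P subunit gene Rpp25l had 56.3 in the Pspc1 hairpin library and 47.3 in the LacZ hairpin library, Pop7 had 91.0 and 86.1, and Pop5 had 51.6 and 52.9. The lowest ratios, named after the values were seen, were those of the RNase P subunit genes Pop1 (30.6 in the Pspc1 hairpin library and 39.5 in the LacZ hairpin library) and Rpp30 (14.6 and 17.8). Elac2, which encodes RNase Z, the enzyme that trims the 3′ side of tRNAs, had 84.5 in the Pspc1 hairpin library and 82.4 in the LacZ hairpin library. Mettl16, counted with the speckle list, encodes a protein that binds the MALAT1 end helix in human cells, and had 61.03 and 68.0 in the same order.

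A complex of HEXIM1, DNA-PK subunits and paraspeckle proteins that assembles on NEAT1 in human cells was described by 6 genes, 4 of them with a mean of at least 5. Of the 4, 2 lay below 0 and 2 above, with a median of -0.19, which was 0.06 over the members with a mean of at least 20. When scaled by total reads all 4 lay below 0, and after the length and GC correction 3 did. Hexim1, an inhibitor of the elongation factor P-TEFb, had 48.0 in the Pspc1 hairpin library and 65.2 in the LacZ hairpin library. Xrcc6, the gene of Ku70, had 58.3 and 54.8 in the same order, and Rbm14, which is needed for paraspeckles to form, had 115.4 and 110.8. None of the 4 was at least 2-fold different, against 1.92% lower and 0.961% higher over all 8633 genes.

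**Figure D5:**
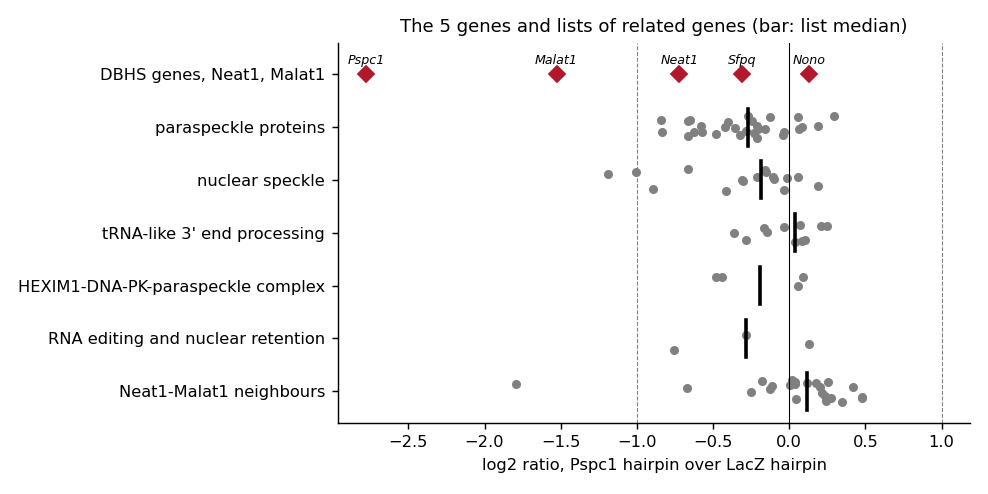
Log2 ratios of Pspc1 over LacZ hairpin for the 5 genes (diamonds) and for members with a mean of at least 5 of 6 related gene lists (points, with the list median as a bar), 1 library per group, with dashed lines at 2-fold. The medians run from -0.28 for RNA editing and nuclear retention to 0.11 for the neighbours, and only Pspc1, Malat1, Pcnx3, Pnn and Sf3b1 lie at or past the lower line.

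Likeness to other genes was measured as the distance between log2 values over both libraries, which is a description of 2 points per gene. Nono was nearest to Txn1 (distance 0.02) and Arf3 (0.02), Sfpq to Tyms (0.01) and Nup205 (0.02), and Neat1 to Hdlbp (0.03) and Ndufv2 (0.06). Within a distance of 0.2 Nono had 58 genes, Sfpq 79 and Neat1 17, so their pair of values was shared by many genes. Malat1 had 1 gene within 0.2, Vbp1, with 6.28 in the Pspc1 hairpin library and 17.1 in the LacZ hairpin library. Pspc1 had 0, and its nearest were Sprr1a (distance 0.54) and Kif26a (0.55).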

How the data were processed

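Build mm10 and the programs DESeq 1.39.0, featureCounts 2.0.0, Trimmomatic 0.39 and HISAT2 2.1.0 were used, per the submitters' processing notes, which give neither roles nor order. Oligo-dT beads selected the RNA, per the labels. The deposited signal is 1 continuous value per gene, scaled by the authors, with formula and filters not given in the sources used here. With 1 step per library fitted to the values themselves, all values (100%, tolerance 0.01 reads) were whole multiples of it, 0.0197 in the Pspc1 hairpin library and 0.0153 in the LacZ hairpin library, which gave the reads. The largest deviation from a whole read was 8.25e-05 in the Pspc1 hairpin library and 3.22e-05 in the LacZ hairpin library.

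Log2 ratios used the deposited values with a pseudocount of 0.5. Intervals are exact (95%, Clopper-Pearson; conditional odds ratio for pairs). The length and GC correction subtracted the median of 300 like genes. The genes, lists and rules were chosen with earlier results of these data known. Named list genes are up to 4 of largest absolute log2 ratio at a mean of at least 50; neighbours and the 2 nearest genes follow distance. Not every gene these rules cover is named, and 1 item is not reported here.

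Annotation, lengths and sequences came from GENCODE M21 (mm10), and 11399 of 11405 identifiers had a symbol. Python 3.11.15, numpy 2.4.6, pandas 2.3.3, scipy 1.17.1 and matplotlib 3.10.9 were used, and steps were tested on simulated data.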

Additional observations from a re-analysis of the deposited data

How the results depend on the processing

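No paired analysis was possible because each group had 1 library, which also left no replicate to leave out. Under all alternatives run the log2 ratios of the 5 genes kept their signs. With a pseudocount of 5 the ratio was -1.94 for Pspc1 and -1.10 for Malat1, and the differences of ratios were 0.41 for Neat1 over Malat1, -2.08 for Pspc1 over Nono and -1.65 for Pspc1 over Sfpq. The length and GC correction gave -2.51 for Pspc1, 0.17 for Nono, -0.46 for Neat1, -1.28 for Malat1, -2.69 for Pspc1 over Nono and -2.21 for Pspc1 over Sfpq. It gave list medians of -0.17 (paraspeckle), -0.12 (speckle), -0.086 (3′ end processing) and 0.017 (neighbours). Median-of-ratios scaling gave 0.18 for Nono, -0.26 for Sfpq, -0.13 for speckle genes and 0.16 for neighbours, and a trimmed mean of M values gave 0.17 for Nono and -0.14 for speckle genes. Scaling by total reads gave 0.028 for Nono, -0.41 for Sfpq, -0.82 for Neat1, -0.38 for paraspeckle genes, -0.29 for speckle genes, -0.067 for 3′ end processing, -0.29 for the HEXIM1 complex and 0.011 for neighbours. The HEXIM1 complex had 0.058 over members with a mean of at least 20. Genes called higher and lower were 50 and 71 with a minimum mean of 20 and 149 and 306 with none. The other 54 values moved less than the counting interval (or stayed within 1.5 times, for counts). The causes were not tested. The fewest reads behind a value of the 5 genes were the 192 of Pspc1 in its hairpin library.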

Other observations

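Genes tied to the nuclear retention of edited RNA, a role known for NONO, were given as values only. Adar, which edits adenosine to inosine in paired RNA, had 65.2 in the Pspc1 hairpin library and 59.6 in the LacZ hairpin library. Carm1, an arginine methyltransferase that modifies NONO, had 91.7 and 111.5 in the same order. Adarb1, a further editing enzyme named after its values were seen, had 17.5 in the Pspc1 hairpin library and 30.02 in the LacZ hairpin library, a log2 ratio of -0.76. None of the 3 was at least 2-fold different, against 1.92% lower and 0.961% higher over all 8633 genes.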
